A study of Mus musculus with 22 samples.

Results

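The smooth-muscle-type contractile genes described here are 10 genes of 24454 in the count table: *Acta2*, *Actg2*, *Tagln*, *Cald1*, *Cnn1*, *Cnn2*, *Tpm1*, *Tpm2*, *Tpm4* and *Myl9*. They were taken by their symbols, and all 10 had a row. Bulk RNA-seq was measured in 22 libraries, each from 25 cells that were positive for VE-Cadherin and had been sorted from the aorta-gonad-mesonephros (AGM) region of C57BL/6 mouse embryos. The cells were neither cultured nor treated, no group carries an engineered allele, and the labels do not say how many embryos or sorts stand behind a library. P-values therefore measure the spread between these libraries, which may be partly technical.

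The sort divided the cells by the surface proteins CD44 and Kit. CD44Neg cells, labelled endothelial, gave 10 libraries (E9.5, 4; E10, 3; E11, 3). CD44LowKitNeg cells, labelled hemogenic endothelial, gave 6 libraries (E9.5, 1; E10, 2; E11, 3). CD44LowKitPos cells, labelled as precursors of haematopoietic stem and progenitor cells, gave 3 libraries (E9.5, 1; E10, 2). CD44High cells, labelled as those stem and progenitor cells, gave 3 libraries, all at E11. Stage runs with the date in the labels, and CD44High and CD44LowKitPos share no stage, so that population and stage cannot be told apart between them. Replicates are named below by the library number of the labels, which runs from 1 to 22 over all groups.

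Levels are given as CPM, counts scaled to the total of each library and by edgeR's TMM factors. Libraries held 3912350 to 8657546 counts, and 3 counts, the most that a count of 0 allows, were worth 0.348 to 0.816 CPM for counting error alone. *Cd44* RNA separated CD44Neg from the other 3 populations, but not CD44High from the CD44Low gates: it was 29.9 ± 19.5 CPM (SD, n = 10) in CD44Neg against 254 ± 78.7 (n = 6) in CD44LowKitNeg, 257 ± 85.2 (n = 3) in CD44LowKitPos and 268 ± 87.2 (n = 3) in CD44High. *Kit* was 229.7 ± 50.1 CPM (n = 3) in CD44LowKitPos against 46.9 ± 17.3 in CD44LowKitNeg. *Cdh5*, which encodes VE-Cadherin, had 0 counts in all 3 CD44High libraries although its protein was part of the sort. In these 3 libraries, 9 endothelial markers summed to between 71.5 and 157 CPM, and all 7 macrophage markers were above the limit of a count of 0, with a sum of 1292 to 3593 CPM. That sum did not exceed 40.2 CPM in any other library. CD44High replicate 22 stood apart from replicates 20 and 21 in the genes described here, as set out below. CD44Neg replicate 6, at E9.5, stood apart from the other 3 libraries of its group and stage, with a chi-square per degree of freedom over genes of 61.1 to 85.2 against them and 17.1 to 20.4 among those 3. It also had the lowest share of *Rn45s*, at 1.92% of counts, and 10825 genes detected, the fewest in CD44Neg.

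Smooth muscle shortens when myosin pulls on filaments of alpha and gamma smooth muscle actin, while tropomyosin, caldesmon and calponin lie along the same filaments and tune the access of myosin. Many of these genes are switched on by serum response factor (SRF) with its MRTF partners through a DNA element called the CArG box. Several members are not confined to muscle, since caldesmon, calponin 2 and the tropomyosins also stabilise the actin bundles of endothelial and other migrating cells.

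The members lie on separate parts of the genome, and the positions are those of GENCODE M21 on GRCm38, whose release may differ from the annotation with which the authors counted on mm10. *Acta2* lies at chr19:34241090-34255590, *Actg2* at chr6:83512905-83536265, *Tagln* at chr9:45929619-45936058 and *Cald1* at chr6:34598500-34775473. *Cnn1* lies at chr9:22099216-22109630, *Cnn2* at chr10:79988584-79996062 and *Myl9* at chr2:156775420-156781658. The tropomyosin genes lie at chr9:67022590-67049406 (*Tpm1*), chr4:43514711-43523765 (*Tpm2*) and chr8:72134975-72153142 (*Tpm4*). Exons of *Tagln* overlap those of *Pcsk7* and *Gm48529* on the opposite strand, and the longest overlaps of single exons are 108 and 404 bases. Exons of *Tpm4* overlap those of *Gm26586* on the opposite strand, with a longest overlap of 134 bases. The total of shared bases can be larger. Counting by strand is not stated, so reads from shared bases cannot be told apart between the partners. Of all 50-base stretches of the coding transcripts, 47.6% of those of *Tagln* and 16.1% of those of *Tpm4* also occur, on either strand, in transcripts of another gene. For *Tagln* these were only the overlapping genes *Gm48529* and *Pcsk7*, and for *Tpm4* they include the pseudogene *Gm7809*. The share was 0.326% for *Acta2* and 0% for the other 7.

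RefSeq promoter windows on GRCm38.p6, from 250 bases before to 50 after a gene's start, were at hand for 8 of the 10 members. They were searched for the CArG box, which is CC, then 6 bases that are each A or T, then GG. The motif is its own reverse complement, so both strands were covered. An exact box was present in 1.63% of all 32851 windows, and a box with at most 1 inner base that is not A or T in 9.98%. Of the 8 members, 3 had a box of the looser kind and 2 of these an exact one. The 5 sites are printed with 10 bases on either side, because the 3 members that hold them had very different levels. Each is written 5′ to 3′ on the gene's strand, with the box in capitals.

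Myl9, exact, first base 161 before the start, chr2:156775293-156775322, plus strand: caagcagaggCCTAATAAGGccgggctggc

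Myl9, 1 inner base off, first base 99 before the start, chr2:156775355-156775384, plus strand: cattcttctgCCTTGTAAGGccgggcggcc

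Cnn2, exact, first base 56 before the start, chr10:79988534-79988563, plus strand: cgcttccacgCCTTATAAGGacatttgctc

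Acta2, 1 inner base off, first base 84 before the start, chr19:34255438-34255467, minus strand: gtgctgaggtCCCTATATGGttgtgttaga

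Acta2, 1 inner base off, first base 34 before the start, chr19:34255388-34255417, minus strand: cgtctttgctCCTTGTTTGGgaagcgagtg

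Both *Acta2* sites also fall within an exon of the *Acta2* transcript that GENCODE lists, while the other 3 fall in no exon. A match of letters is a description of the window and not evidence of binding. The windows of *Cald1*, *Cnn1*, *Tpm1*, *Tpm2* and *Tpm4* held no box of either kind, which says only that these letters are not in those windows.

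The contractile genes did not move as a block. Across the 4 populations, *Acta2* and *Tagln* had their lowest medians in CD44Neg, *Cnn2* and *Tpm4* their highest medians there, *Cald1* was lowest in CD44LowKitPos and CD44High, *Tpm2* rose in CD44High, and no comparison of populations over all libraries called *Acta2*, *Tagln*, *Tpm1*, *Myl9* or *Cnn1* with the test described next, unless stage was a covariate. A member counted as called when its adjusted p was below 0.01 (quasi-likelihood test of edgeR, adjusted by the Benjamini-Hochberg method over all genes tested). Between CD44LowKitNeg and CD44Neg, 0 of the 9 members tested were called against 10.2% of 11022 genes, with 5 members at an unadjusted p under 0.05 against 32.6% of genes and 3 called by DESeq2's Wald test against 14.6%. For 0 of the 9 were the 2 groups without overlap, against 5.58% of genes. *Cnn1* did not pass the filter on low counts in that comparison. With stage as a covariate, 4 members were called (*Acta2*, *Tagln*, *Cnn2* and *Tpm4*) against 11.9% of genes.

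Between CD44LowKitPos and CD44LowKitNeg, 1 of 10 members was called against 4.26% of genes, and the same gene alone was at an unadjusted p under 0.05 (27.2% of genes) and without overlap of the groups (16.9%). Between CD44LowKitPos and CD44Neg the count was 0 of 10 against 3.48%, with 5 members at an unadjusted p under 0.05 (20.3% of genes) and 2 called by DESeq2 (6.79%), and 4 members did not overlap (9.66%). CD44High against CD44LowKitPos gave 0 of 10 against 3.01%, with 3 at an unadjusted p under 0.05 (17.8% of genes) and 0 called by DESeq2 (5.95%), and 3 did not overlap (23.9%). CD44High differed from CD44LowKitNeg in 3 of 10 members against 16% of genes, with 4 at an unadjusted p under 0.05 (37.5%) and 3 without overlap (25.3%). From CD44Neg it differed in 5 of 10 against 14.4%, with 6 at an unadjusted p under 0.05 (33.2%) and 4 without overlap (18.8%). All CD44High libraries are from E11, and among the E11 libraries alone *Cald1*, *Cnn2*, *Tpm2* and *Tpm4* were called in both comparisons, which is 4 of 10 members against 15.5% of genes for CD44LowKitNeg and 8.47% for CD44Neg. These comparisons share libraries, so their counts are not independent of each other.

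**Figure D1:**
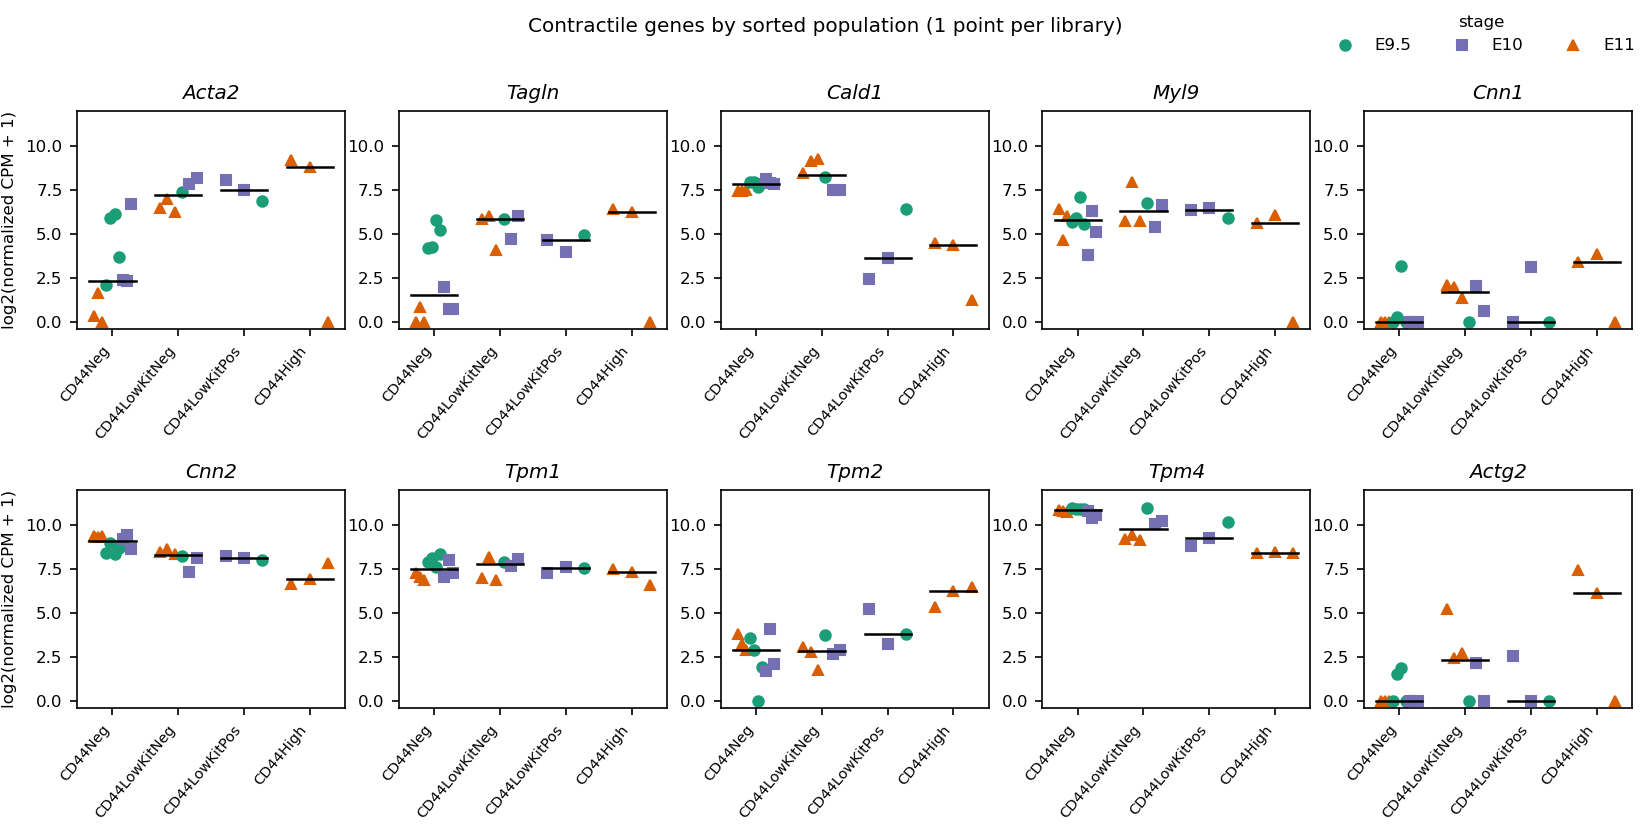
Normalized level of each contractile gene, as log2(CPM + 1), in the 4 sorted populations, with 1 point per library, stage by colour and shape, and the group median as a line. CD44High replicate 22 sits at 0 for *Acta2*, *Tagln*, *Myl9*, *Cnn1* and *Actg2*, and *Tpm4* steps down from a median of 1838 CPM in CD44Neg to 341 CPM in CD44High.

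*Acta2* encodes alpha smooth muscle actin, the thin filament actin by which vascular smooth muscle is usually recognised. In the 10 CD44Neg libraries it ranged from 0 to 105 CPM with a median of 4.12. In the 6 CD44LowKitNeg libraries it ranged from 76.5 to 289 CPM with a median of 149. The 3 CD44LowKitPos libraries held 270.3, 181 and 117 CPM, and the CD44High libraries held 598, 449 and 0 CPM. All 6 CD44LowKitNeg libraries lay above the CD44Neg median, and the groups overlapped only through CD44Neg replicate 10 at E10, with 105 CPM. The log2 difference between CD44LowKitNeg and CD44Neg was 2.65 ± 0.87 (SE, adjusted p = 0.0359), which missed the threshold, and with stage as a covariate it was 4.08 ± 0.95 (adjusted p = 0.00459). Neighbours higher in the order did not differ beyond their spread, with adjusted p = 0.947 for CD44LowKitPos against CD44LowKitNeg and 0.862 for CD44High against CD44LowKitPos. Between CD44High and CD44Neg the log2 difference of *Acta2* was 3.74 ± 1.08 (adjusted p = 0.0132), which missed the threshold. It was called without CD44High replicate 22 (4.28, adjusted p = 0.00379), without CD44Neg replicate 10 (4.33, 0.00532) and with stage as a covariate (6.49, 0.00297). Among the E11 libraries alone it was not called (8.70, adjusted p = 0.0105).

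As a share of the 6 actin genes *Actb*, *Actg1*, *Acta1*, *Acta2*, *Actc1* and *Actg2* by CPM per kb of transcript, *Acta2* was small in every population. Its share was 0.15% ± 0.245 (SD, n = 10) in CD44Neg, 1.75% ± 0.97 (n = 6) in CD44LowKitNeg, 1.68% ± 0.662 (n = 3) in CD44LowKitPos and 2.47% ± 2.58 (n = 3) in CD44High. Cytoplasmic beta actin, *Actb*, held 86.4% to 97.3% of the family in each of the 22 libraries.

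*Actg2* encodes gamma smooth muscle actin, the form of the gut and bladder wall. It was at 0 counts in 8 of the 10 CD44Neg libraries and reached 2.61 CPM in the highest of them. The CD44LowKitNeg libraries held 37.2, 4.53 and 5.73 CPM at E11, 0 at E9.5, and 3.52 and 0 at E10. CD44LowKitPos replicate 17 held 4.81 CPM and the other two held 0. In CD44High the values were 172, 70.6 and 0 CPM, so that replicates 20 and 21 were above every other library and replicate 22 was at the floor. *Actg2* was called between CD44High and CD44Neg (log2 difference 7.44 ± 1.57, adjusted p = 0.000996), a size that depends on a group with 8 libraries at 0. The call was lost without CD44High replicate 20 (adjusted p = 0.0199), with the Wald test of DESeq2 (0.0459), when stage was added as a covariate (0.0365) and among the E11 libraries alone (0.0224).

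*Tagln* encodes transgelin or SM22, an actin-bundling protein and an early marker of the smooth muscle lineage. CD44Neg libraries ranged from 0 to 55.1 CPM with a median of 1.90. CD44LowKitNeg libraries ranged from 16 to 65.1 CPM with a median of 57.0. CD44LowKitPos libraries held 24.0, 15.1 and 30.2 CPM, and CD44High libraries 85.1, 75.1 and 0 CPM. The overlap between the 2 endothelial populations came from the 4 CD44Neg libraries of E9.5, which are described with the stages below. The log2 difference between CD44LowKitNeg and CD44Neg was 1.84 ± 0.92 (adjusted p = 0.173), and 5.23 ± 0.89 (adjusted p = 0.000391) with stage as a covariate. Transgelin 2, *Tagln2*, held most of the family in every library, and *Tagln* made up 2.67% ± 4.12 of the transgelins by CPM per kb in CD44Neg and 7.75% ± 3.63 in CD44LowKitNeg.

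*Cald1* encodes caldesmon, which binds actin and tropomyosin and holds back myosin. Its CD44Neg values lay between 173 and 278 CPM with a median of 234. CD44LowKitNeg ranged from 181 to 618 CPM with a median of 330.0. CD44LowKitPos replicates 17, 18 and 19 held 4.50, 11.6 and 86.7 CPM, and CD44High held 21.2, 19.97 and 1.36 CPM. Every CD44LowKitPos and CD44High library was below every library of both endothelial populations. *Cald1* fell by 3.42 ± 0.74 on the log2 scale from CD44LowKitNeg to CD44LowKitPos (adjusted p = 0.00477), but the call was lost without replicate 17 (adjusted p = 0.036), without replicate 18 (0.0314) and in a fit of the E9.5 and E10 libraries with stage as a covariate (0.0171). The 9 endothelial markers summed to 4332 to 9896 CPM in CD44LowKitNeg and to 1060 to 2296 CPM in CD44LowKitPos, and their part in the *Cald1* level was not tested. The log2 difference between CD44High and CD44LowKitNeg was -4.69 ± 0.80 (adjusted p = 0.000117), and that between CD44High and CD44Neg was -3.96 ± 0.75 (adjusted p = 0.000358). Both CD44High calls held in each fit that left out 1 library. The difference between CD44High and CD44LowKitPos was not called, at -1.26 (adjusted p = 0.4), and was 0.82 (0.631) without CD44LowKitPos replicate 19. Between CD44LowKitPos and CD44Neg it was -2.69 ± 0.69 (adjusted p = 0.0149), and it passed the threshold without CD44LowKitPos replicate 19, the highest of its group (-4.77, adjusted p = 0.000127), and in the fit of E9.5 and E10 with stage as a covariate (-3.04, 0.00629), where 2.78% of genes were called.

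The calponins bind actin and slow its myosin. *Cnn1*, the isoform of differentiated smooth muscle, was at 0 counts in 8 of 10 CD44Neg libraries and its highest value in any library was 13.6 CPM, in CD44High replicate 21. It was above the limit of a count of 0 in 5 of 6 CD44LowKitNeg libraries, with values of 0 to 3.23 CPM. No comparison of all libraries called it, but CD44High against CD44Neg (log2 difference 3.16, adjusted p = 0.219) was called without CD44Neg replicate 6 (7.43, adjusted p = 0.00139), which leaves *Cnn1* at 0 or 1 count in each CD44Neg library. *Cnn2*, the broadly expressed isoform, was far more abundant and ran the other way. It ranged from 334 to 701 CPM with a median of 549.9 in CD44Neg and from 159 to 399.6 CPM with a median of 316 in CD44LowKitNeg. CD44LowKitPos libraries held 300.4, 276 and 257 CPM and CD44High libraries 98, 119.6 and 232 CPM, all below the lowest CD44Neg library. *Cnn2* fell by 1.82 ± 0.31 on the log2 scale from CD44Neg to CD44High (adjusted p = 0.000123). Against CD44LowKitNeg the difference in CD44High was -1.03 ± 0.31 (adjusted p = 0.0166), and it was called at E11 alone (-1.40, adjusted p = 0.00508), without CD44LowKitNeg replicate 15 (0.00242) and without CD44High replicate 22 (-1.57, 0.00209). Between the 2 endothelial populations the difference was -0.78 ± 0.21 (adjusted p = 0.0131), past the threshold with the Wald test of DESeq2 (0.00764), when stage was added as a covariate (0.00113) or without CD44Neg replicate 6 (0.00937).

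The share of *Cnn2* within its family was a separate quantity from its level. Within the 3 calponin genes by CPM per kb it made up 29.7% ± 8.43 in CD44Neg, 23.3% ± 6.61 in CD44LowKitNeg and 43.6% ± 20 in CD44High, where the range over the 3 libraries, 25.3% to 64.9%, overlapped that of CD44Neg, 16.6% to 45.5%. *Cnn3*, the non-muscle isoform, was 1235 ± 279 CPM in CD44Neg and 184 ± 78.7 CPM in CD44High (log2 difference -2.74 ± 0.32, adjusted p = 7.88e-07).

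The tropomyosins wind along the actin filament and set which myosins and severing factors reach it. *Tpm4*, a short form common in non-muscle cells, had the highest mean level per kb of the members in CD44Neg, at 848 ± 99.5 CPM per kb, and in CD44LowKitNeg and CD44LowKitPos. In CD44High it was 162 ± 3.26 CPM per kb, beside 172 ± 153 for *Acta2*. Its CPM ranged from 1375 to 2058 in CD44Neg with a median of 1838, and from 581 to 2017 in CD44LowKitNeg with a median of 891. CD44LowKitPos libraries held 445, 607 and 1160.3 CPM, and CD44High libraries 339, 352 and 341 CPM. The CD44High libraries agreed within an SD of 6.94 CPM and lay below every other library. *Tpm4* fell by 2.39 ± 0.34 on the log2 scale from CD44Neg to CD44High (adjusted p = 1.19e-05) and by 1.58 ± 0.34 from CD44LowKitNeg to CD44High (adjusted p = 0.00104). The differences of CD44LowKitNeg (-0.81 ± 0.22, adjusted p = 0.0128) and CD44LowKitPos (-1.29 ± 0.32, adjusted p = 0.0114) from CD44Neg were just outside the threshold, and the second was called in the fit of E9.5 and E10 with stage as a covariate (-1.21 ± 0.18, adjusted p = 0.00127). Each was also called in 1 of the fits that left out 1 library (adjusted p = 0.000302 and 0.00198).

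*Tpm2* encodes beta tropomyosin, a muscle form, and had the opposite course at a far lower level. It ranged from 0 to 15.9 CPM in CD44Neg and from 2.32 to 12.6 CPM in CD44LowKitNeg. CD44LowKitPos libraries held 37.2, 8.40 and 13 CPM and CD44High libraries 39.4, 75.4 and 89.8 CPM. Every CD44High library was above every other library, and unlike *Acta2*, *Tpm2* had its highest value in replicate 22. *Tpm2* rose by 3.36 ± 0.78 on the log2 scale from CD44LowKitNeg (adjusted p = 0.00246) and by 3.30 ± 0.67 from CD44Neg (adjusted p = 0.000671). The first call was lost without CD44High replicate 21 (adjusted p = 0.0124) or 22 (0.0186). The macrophage markers were high in the same 3 libraries, and their part in the *Tpm2* level was not tested.

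*Tpm1*, alpha tropomyosin, stayed close to 1 level, with medians of 178, 222, 188 and 161 CPM from CD44Neg to CD44High. No comparison called it, and the log2 differences between populations lay between -0.51 and 0.08, with an SE of at most 0.39. Within the 4 tropomyosin genes by CPM per kb, *Tpm4* held 68.7% ± 5.10 in CD44Neg, 61.6% ± 7.78 in CD44LowKitNeg, 48.0% ± 15.2 in CD44LowKitPos and 38.0% ± 1.88 in CD44High. *Tpm2* held 0.272% ± 0.201 in CD44Neg and 7.57% ± 2.78 in CD44High, and the share of *Tpm1* was 9.65% ± 2.92 and 21% ± 7.09. *Tpm3* was the second form in all 4 populations by its mean share.

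**Figure D2:**
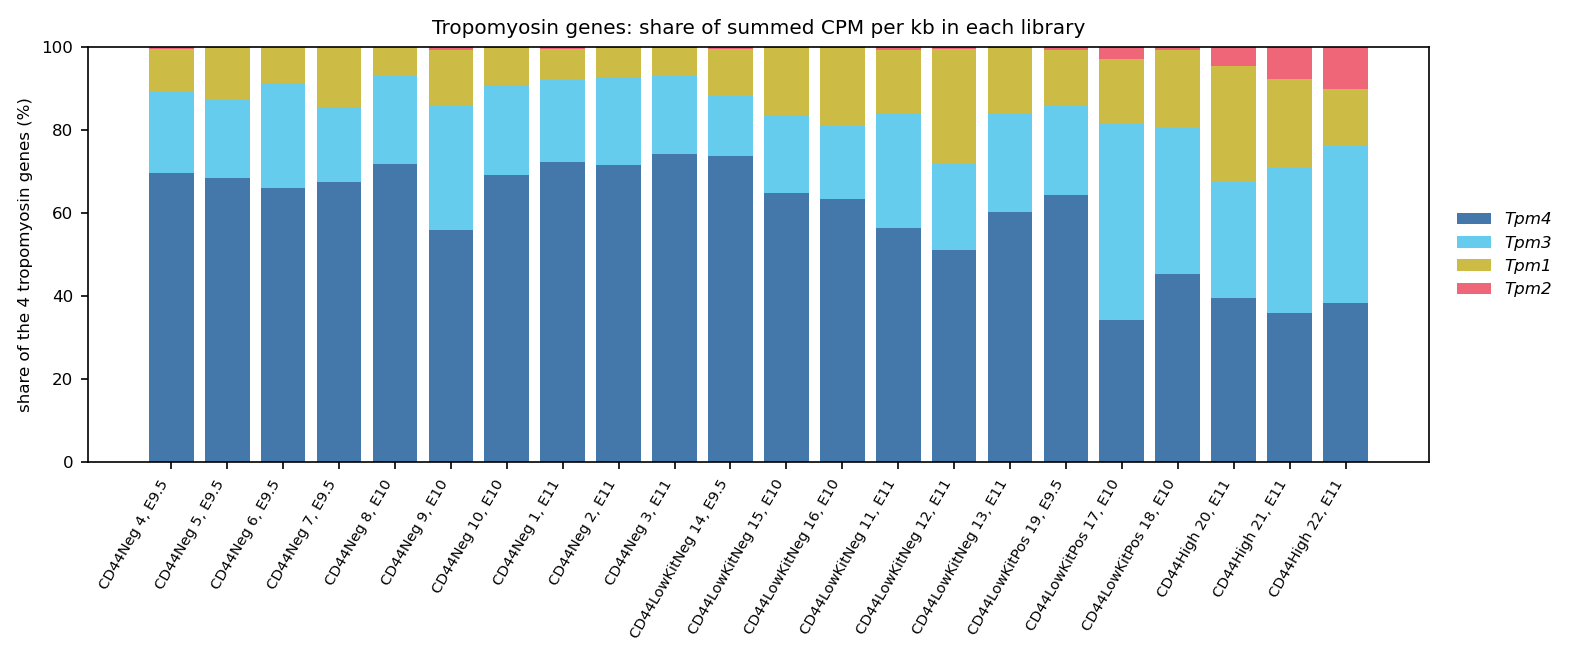
Share of the 4 tropomyosin genes in each library, as a percentage of their summed CPM per kb of transcript, with libraries ordered by population and stage. *Tpm4* takes 55.9% to 74.1% in CD44Neg and 35.9% to 39.7% in CD44High, where *Tpm2* reaches 10.2%.

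*Myl9* encodes the regulatory light chain of smooth muscle and non-muscle myosin II, whose phosphorylation starts contraction. It ranged from 13.1 to 136 CPM in CD44Neg with a median of 55.4, and from 40.6 to 251 CPM in CD44LowKitNeg with a median of 77.3. CD44LowKitPos libraries held 80.3, 90.2 and 58.5 CPM and CD44High libraries 48.5, 66 and 0 CPM. The groups overlapped in every comparison of populations, and none called *Myl9*. Its near relatives *Myl12a* and *Myl12b* held the rest of the regulatory light chains by CPM per kb, and *Myl9* itself 4.31% ± 2.22 in CD44Neg and 5.55% ± 3.32 in CD44LowKitNeg. Exons of *Myl12a* and *Myl12b* overlap on the same strand, with a longest overlap of 199 bases, so these shares depend on how reads there were counted.

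**Figure D3:**
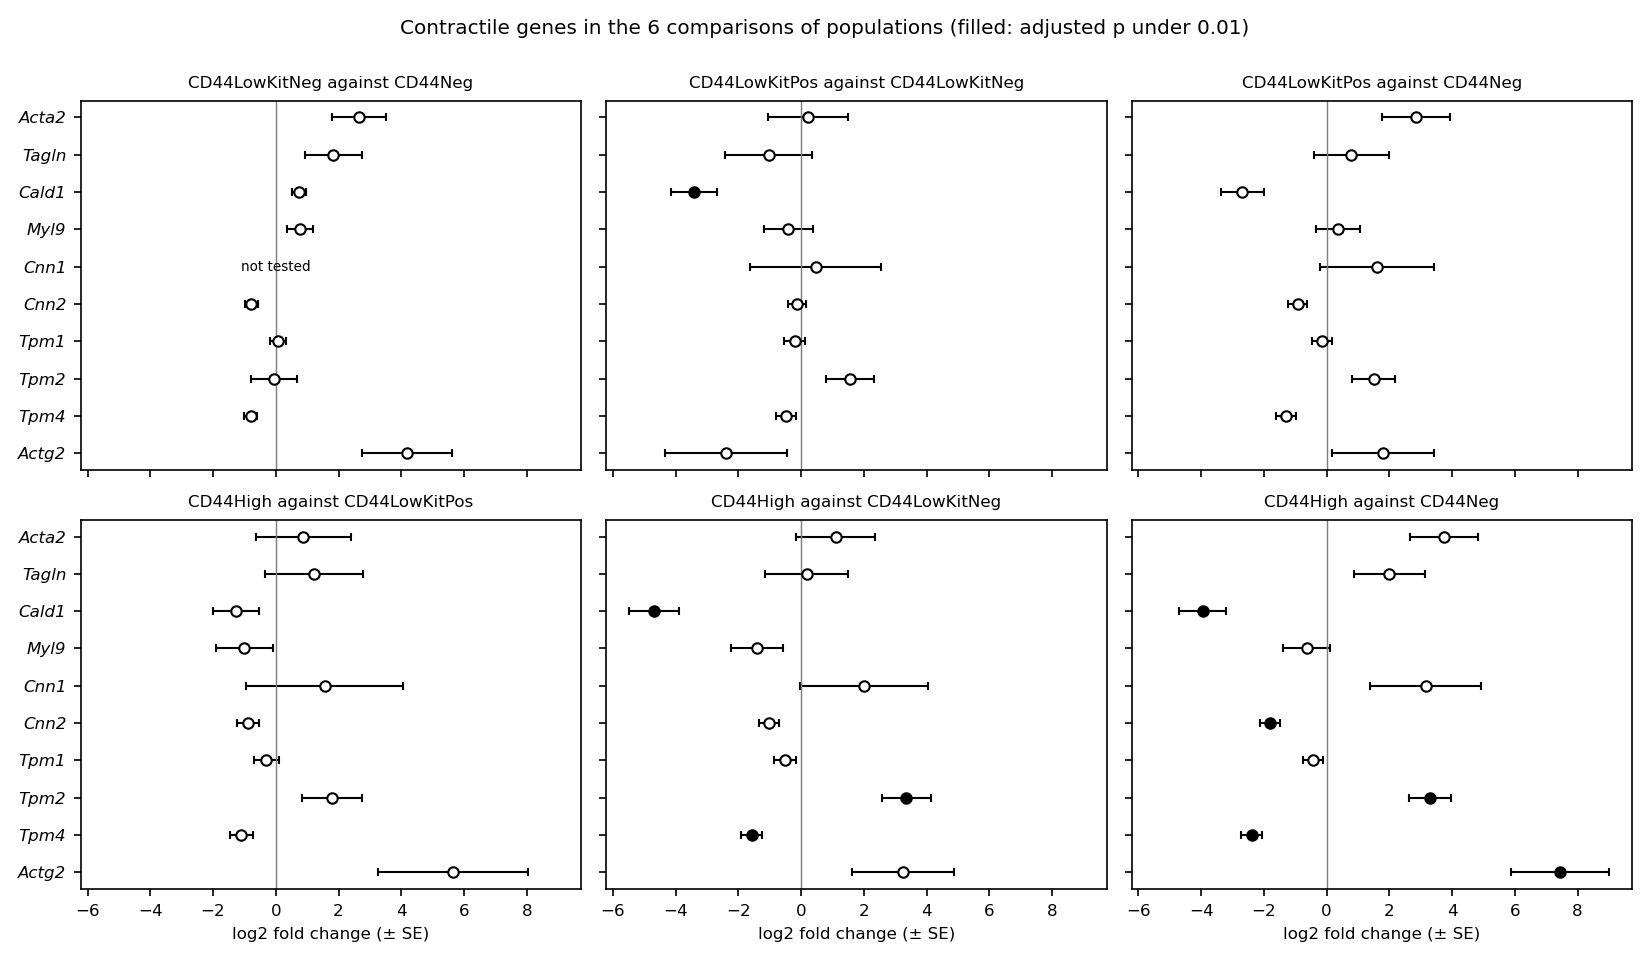
Log2 fold change of each contractile gene with its SE as a bar in the 6 comparisons of populations, filled where a gene was called. Filled points appear for *Cald1*, *Cnn2*, *Tpm2*, *Tpm4* and *Actg2* in CD44High against CD44Neg, and none appears in CD44LowKitNeg against CD44Neg.

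Stage is described for *Acta2*, *Tagln*, *Cald1* and *Tpm4* first. In CD44Neg, *Tagln* was 17.8, 18.4, 55.1 and 36.4 CPM at E9.5, then 3.02, 0.669 and 0.671 CPM at E10, and 0, 0.778 and 0 CPM at E11. The 3 stages thus stepped down without overlap between E9.5 and either later stage. Other values differed between the same libraries: *Rn45s* took 1.92% to 13.8% of counts at E9.5 and 15.2% to 17.9% at E11, the striated muscle actin *Acta1* was 10.2, 13.4, 120.1 and 0 CPM at E9.5, with the highest in replicate 6, and 0, 3.31 and 0 CPM at E11, and *Cd44* averaged 40.9 and 12.8 CPM, neither gene called. Mean levels of 3 endothelial markers were called higher at E11 than at E9.5, and the other endothelial markers were not called. *Pecam1* averaged 405 CPM at E9.5 and 1143 CPM at E11 (adjusted p = 0.000381), *Tie1* 125 and 264 CPM (0.00854), and *Esam* 439 and 862 CPM (0.0076). The relatives *Tagln2* (343 and 705 CPM) and *Actg1* (690 and 1470 CPM) were also called higher. The part of all these values in the stage differences was not tested. *Tagln* was the only 1 of 8 members tested that was called between E11 and E9.5 (log2 difference -6.78 ± 1.17, adjusted p = 0.0076), against 0.684% of 11250 genes, and the call was lost in each fit that left out 1 library (adjusted p from 0.0105 to 0.0395), with the log2 difference at -10.35 without CD44Neg replicate 2 and between -6.99 and -6.16 without any of the others. In that comparison 6 of 8 members did not overlap, against 20.5% of genes, and 5 were at an unadjusted p under 0.05, against 17.1%. In CD44LowKitNeg the same gene was 57.8 CPM at E9.5, 25.8 and 65.1 CPM at E10, and 56.2, 64.2 and 16 CPM at E11, with no step.

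*Acta2* in CD44Neg showed no step between E9.5 and E10 (0.08 ± 1.13, adjusted p = 0.987) and was low at E11, with 3.22, 60.1, 70.8 and 11.8 CPM at E9.5, 4.22, 4.03 and 105 CPM at E10, and 0.265, 2.14 and 0 CPM at E11. All 3 E11 libraries were below all earlier ones, but the libraries of the earlier stages were widely spread and the difference between E11 and E9.5 was not called (-5.45 ± 1.54, adjusted p = 0.0735). That difference lay between -8.17 and -4.81 in the fits that left out 1 library. In CD44LowKitNeg, *Acta2* was 169 CPM at E9.5, 227 and 289 CPM at E10, and 88.5, 128 and 76.5 CPM at E11. The E11 values were again the lowest of the group, at -1.18 ± 0.30 against the earlier stages (adjusted p = 0.0834).

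At E11 the 2 endothelial populations were therefore far apart in both genes. CD44LowKitNeg replicates were between 76.5 and 128 CPM for *Acta2* against at most 2.14 CPM in CD44Neg, and between 16 and 64.2 CPM for *Tagln* against at most 0.778 CPM. In a fit of the 9 E11 libraries the log2 differences were 6.96 ± 1.83 for *Acta2* (adjusted p = 0.0557) and 7.37 ± 1.83 for *Tagln* (0.0436), neither past the threshold. At E11 the libraries of the 2 populations did not overlap for 7 of the 10 members, against 32.1% of 11942 genes, though *Cnn1* and *Actg2* among the 7 had no count in CD44Neg at that stage. At E9.5 and E10 together, 2 of 10 members did not overlap (*Acta2* and *Cnn2*, with replicate 10 as the highest CD44Neg library for *Acta2*) against 14% of genes, and with stage as a covariate the log2 differences were 2.54 ± 0.86 for *Acta2* (adjusted p = 0.0709) and 3.28 ± 0.92 for *Tagln* (0.0329). The interaction of population with stage over the E10 and E11 libraries was not called for *Acta2* (4.14 ± 1.71, adjusted p = 0.416) or *Tagln* (2.37 ± 1.49, adjusted p = 0.617), so a difference between the stages in the size of this contrast was not shown. When 1 library was left out, the interaction lay between 0.92 and 6.90 for *Acta2* and between 1.26 and 6.11 for *Tagln*.

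The interaction of population with stage had its smallest p-values among the members for *Cald1* and *Tpm4*. *Tpm4* was 2017 CPM at E9.5, 1089 and 1208 CPM at E10, and 593, 692 and 581 CPM at E11 in CD44LowKitNeg. In CD44Neg its means were 1986 ± 48.3 (n = 4), 1569 ± 202 (n = 3) and 1798 ± 92.4 (n = 3) CPM from E9.5 to E11. The single CD44LowKitNeg library of E9.5 was thus at the CD44Neg level, and the E11 libraries were all lower than any CD44Neg library. At E11 alone *Tpm4* was lower in CD44LowKitNeg and called (-1.47 ± 0.17, adjusted p = 0.00249), 1 of 10 members called against 1.06% of genes, while in the fit of E9.5 and E10 with stage as a covariate the difference was -0.19 ± 0.17 (adjusted p = 0.528).

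*Cald1* in CD44LowKitNeg was 307 CPM at E9.5, 181 and 182 CPM at E10, and 353, 564 and 618 CPM at E11. In CD44Neg the means were 234 ± 20.4, 249.6 ± 25.7 and 177 ± 6.71 CPM. The order of the populations thus turned over between E10, where both CD44LowKitNeg libraries were under all 3 of CD44Neg, and E11, where they were above. The differences themselves were not called, at 0.74 ± 0.23 over all stages (adjusted p = 0.0285), 1.59 ± 0.61 at E11 alone (0.16) and 0.02 ± 0.49 at E9.5 and E10 with stage as a covariate (0.989). The difference over all stages passed the threshold in 2 of the 16 fits that left out 1 library, with an adjusted p down to 0.00733. The interaction was 1.98 ± 0.32 for *Cald1* (adjusted p = 0.0256) and -1.09 ± 0.21 for *Tpm4* (adjusted p = 0.0697). With edgeR 0 of 10 members were called for the interaction against 0.00806% of genes, with 3 at an unadjusted p under 0.05 (10.7%), and DESeq2's Wald test called these 2 genes against 1.08% of genes (adjusted p = 1.12e-06 and 4.63e-05).

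In the other comparisons of stages edgeR called 0 members. Within CD44LowKitNeg, E11 against the earlier stages gave 0 of 10 against 0.173% of 11010 genes, 3 at an unadjusted p under 0.05 (*Acta2*, *Cald1* and *Tpm4*; 16.8% of genes), the same number by DESeq2 (4.98%), and 5 without overlap (25.3%). Within CD44Neg, E10 against E9.5 gave 0 of 8 against 0.0178% of genes, 3 at an unadjusted p under 0.05 (15.2%), 2 without overlap (15.2%) and 1 called by DESeq2 (2.25%), and E11 against E10 gave 0 of 8 against 0% of genes, 2 at an unadjusted p under 0.05 (8.68%), 2 without overlap (14.8%) and 0 called by DESeq2 (0.414%). In CD44Neg at E11 against E9.5, *Cnn2* and *Tpm1* had differences of opposite sign that missed the threshold, at 0.75 ± 0.19 (adjusted p = 0.048) and -0.93 ± 0.24 (adjusted p = 0.0509), with no overlap of the libraries in either.

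**Figure D4:**
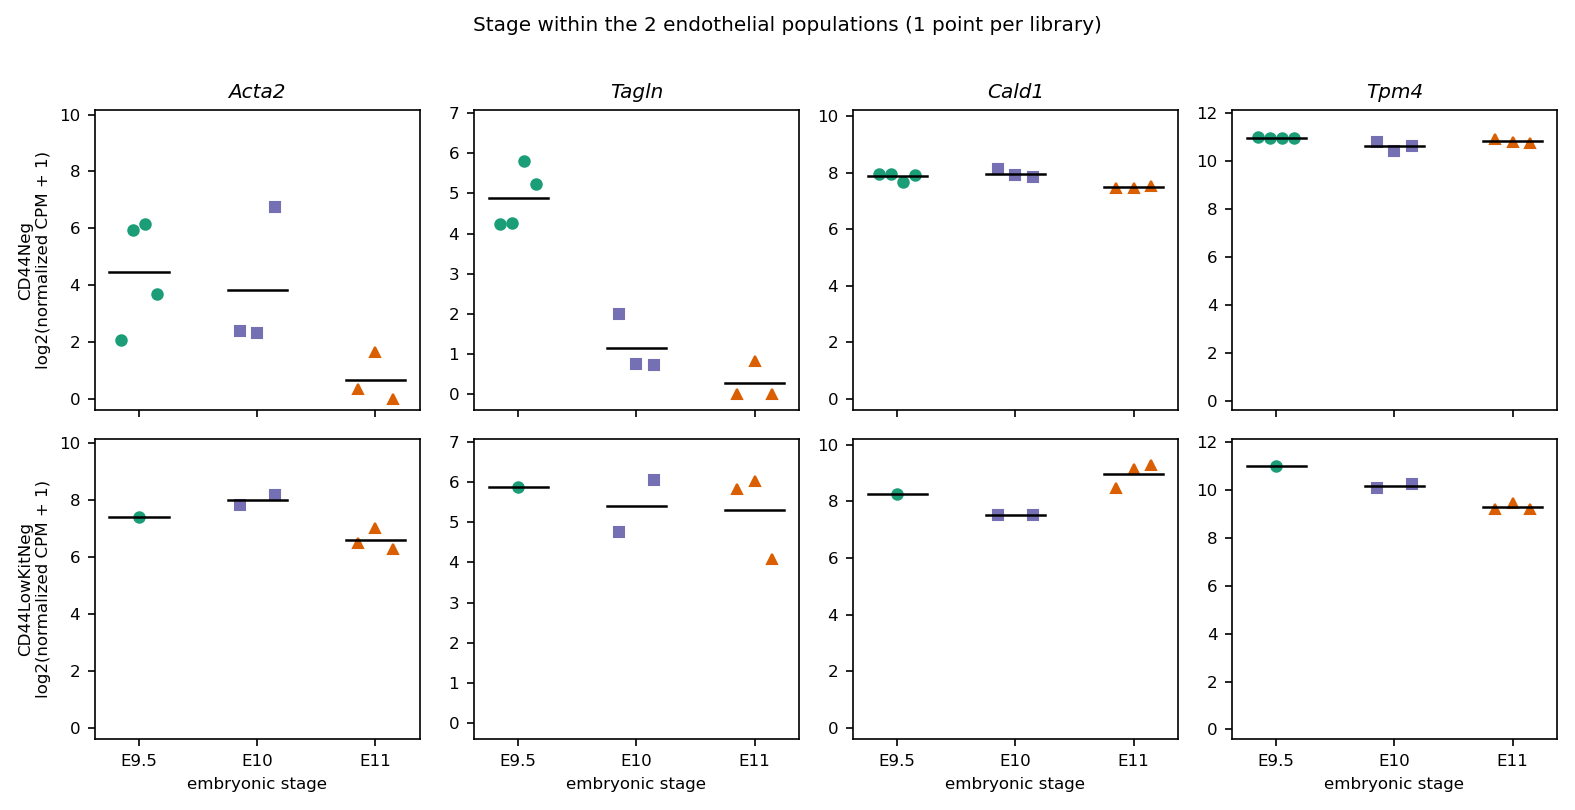
*Acta2*, *Tagln*, *Cald1* and *Tpm4* as log2(CPM + 1) by embryonic stage in CD44Neg (upper row) and CD44LowKitNeg (lower row), with 1 point per library and the stage mean of the log2 values as a line. *Tagln* steps down from at least 17.8 CPM at E9.5 to at most 3.02 CPM later in CD44Neg but not in CD44LowKitNeg, and *Tpm4* steps down in CD44LowKitNeg.

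The 3 CD44High libraries were unlike each other in the smooth muscle members. Over all genes, replicates 21 and 22 were the closest pair (chi-square per degree of freedom 33.7), and replicate 20 was further from both (49.9 and 74.1). *Acta2*, *Tagln*, *Myl9*, *Actg2* and *Cnn1* were all present in replicates 20 and 21, and all 5 had 0 counts in replicate 22. Several markers of mesenchyme and mural cells split the same way. *Col1a1* was 60.6 and 65.5 CPM in replicates 20 and 21 and 0.272 CPM in replicate 22, *Rgs5*, a pericyte gene, was 127, 46.3 and 0 CPM, and *Postn* was 149, 21.6 and 0 CPM. Others did not: *Pdgfra*, *Dcn*, *Lum* and *Des* had 0 counts in replicate 21 as in replicate 22, and *Twist1* had counts in replicate 21 alone. *Kcnj8*, *Abcc9*, *Higd1b* and *Tcf21* had 0 counts in all 3. The sum of the 10 mesenchyme markers was 381, 154 and 0.272 CPM, and that of the 8 mural markers 137, 65.5 and 1.90 CPM. In all, 23 genes had 0 counts in replicate 22 and at least 20 CPM in both other libraries, against 10 genes for replicate 21 and 1 for replicate 20, and *Acta2*, *Tagln*, *Actg2* and *Myl9* were among the 23. The part of such cells or their RNA in these levels was not tested. In bulk samples, fewer cells of a type and less RNA per cell cannot be told apart.

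In CD44LowKitNeg and CD44LowKitPos, *Acta2* was present in every library, and so was at least 1 of the 10 mesenchyme markers above the limit of a count of 0. *Col1a1* had 0 counts in all 10 CD44Neg, 6 CD44LowKitNeg and 3 CD44LowKitPos libraries, and *Cspg4*, which marks pericytes, was at or under the limit of a count of 0 in all 19. *Pdgfrb* was at most 2.03 CPM in these libraries apart from CD44LowKitNeg replicate 13, with 13.5 CPM. *Col3a1* was 14.8, 21.1 and 36.1 CPM in the 3 CD44LowKitNeg libraries of E11, 5.37 CPM in replicate 15 and 0 in the other two, and had 0 counts in CD44LowKitPos. *Col1a2* was above 0 in 5 of the 6 CD44LowKitNeg libraries, up to 25.8 CPM, *Prrx1* reached 16.6 CPM and *Pdgfra* 10.1 CPM there, and *Postn* was 6.03 to 39.4 CPM in CD44LowKitPos. The sum of the 10 mesenchyme markers ranged from 0 to 36.7 CPM in CD44Neg, from 2.16 to 101 CPM in CD44LowKitNeg and from 18.8 to 40.8 CPM in CD44LowKitPos. Of the 6 CD44LowKitNeg libraries, the one with the most *Acta2* (replicate 16, 289 CPM) had the lowest mesenchyme sum, 2.16 CPM, and the one with the least *Acta2* (replicate 13, 76.5 CPM) had the highest, 101 CPM. The 8 mural markers summed to 6.26 to 39.5 CPM in CD44Neg and 7.42 to 78.8 CPM in CD44LowKitNeg, where *Notch3*, a receptor that arterial and mural cells share, made up 14.3 to 52.4 CPM in 5 of the 6 libraries. The mural sum was 53.6 to 78.8 CPM in the 3 E11 libraries of CD44LowKitNeg, which had the lowest *Acta2* of that population, and 7.42 to 16.6 CPM in the 3 earlier ones. The part of mural or mesenchymal cells in these levels was not tested.

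**Figure D5:**
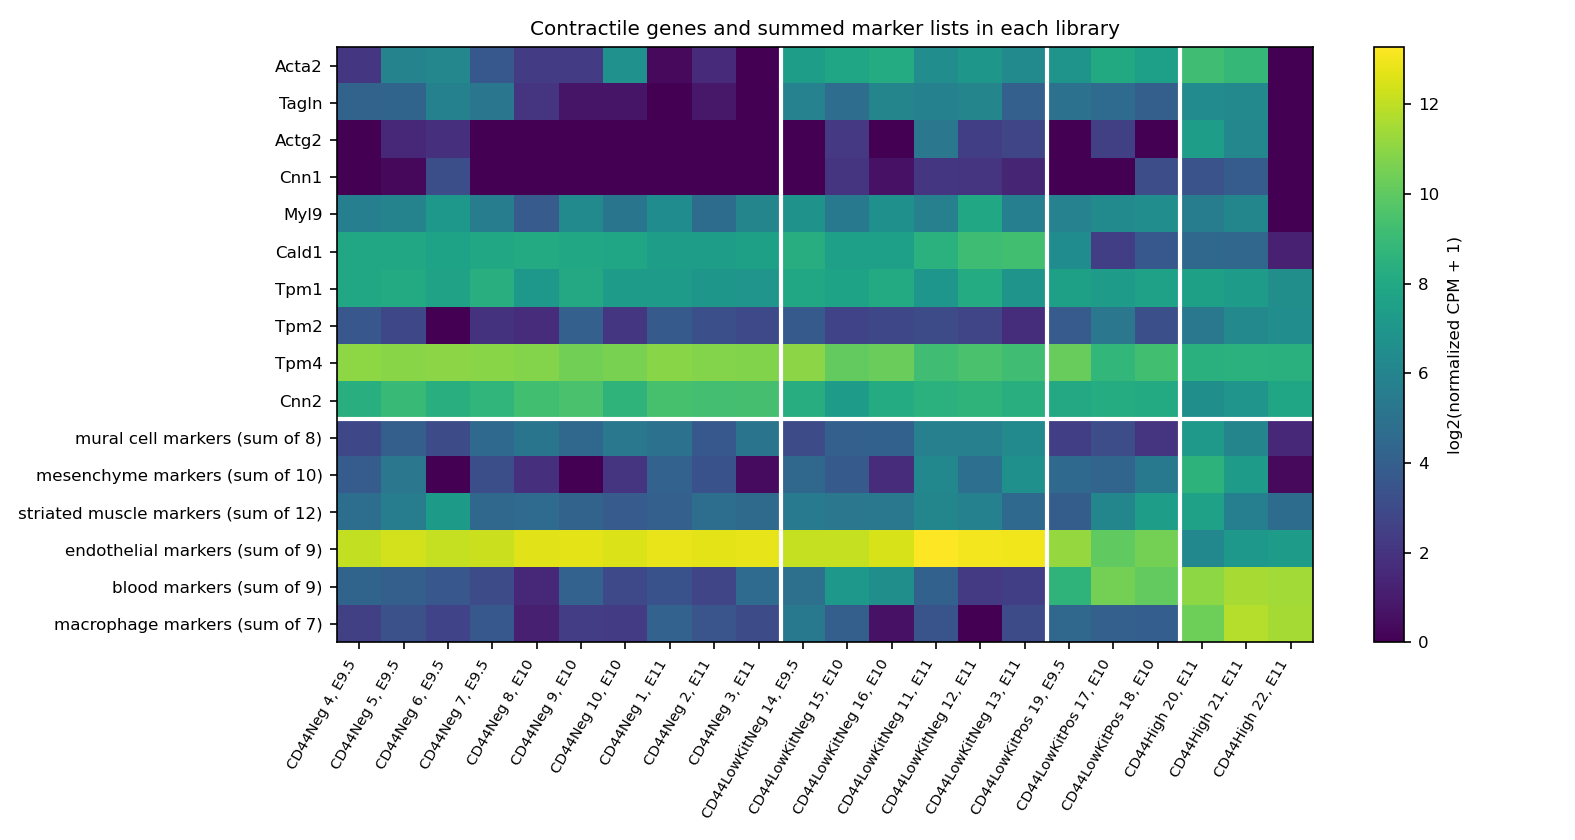
Level of each contractile gene and summed level of 6 marker lists in all 22 libraries, as log2(CPM + 1) by colour, with libraries ordered by population and stage. The dark cells of CD44High replicate 22 for *Acta2*, *Tagln*, *Actg2*, *Cnn1* and *Myl9* go with dark cells for the mesenchyme and mural lists, while CD44LowKitNeg and CD44LowKitPos carry *Acta2* at mesenchyme sums of 101 CPM or less.

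Of 10 genes of mature smooth muscle, several were at or near 0 counts in most libraries and others were not, with a median sum of 94.4 CPM in CD44Neg and 61.3 CPM in CD44LowKitNeg. Only 5 of the 10 passed the filter over the 22 libraries. *Myh11*, the smooth muscle myosin heavy chain, was at 0 counts in 8 of 10 CD44Neg libraries and in all CD44LowKitNeg and CD44LowKitPos libraries, with a highest value of 2.13 CPM. *Lmod1*, *Des* and *Synpo2* were each at or under 3.30 CPM in all 22 libraries. *Myocd*, the smooth muscle partner of SRF, was at 0 in all 10 CD44Neg libraries and reached 8.71 CPM in 1 CD44High library. *Mylk*, which encodes myosin light chain kinase, was present in every library of CD44Neg (20.6 ± 6.08 CPM) and CD44LowKitNeg (22.4 ± 14.1 CPM). *Smtn*, which encodes smoothelin, was 52.3 ± 23.3 CPM in CD44Neg and 40.7 ± 27.6 CPM in CD44LowKitNeg, and fell from CD44Neg to 6.15 ± 5.22 CPM in CD44High (log2 difference -3.09 ± 0.64, adjusted p = 0.000802), 1 of 5 genes called, where 7.25% of all genes were called lower.

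In the SRF and MRTF list, 8 genes were measured. *Mkl2*, which encodes MRTF-B, rose from 71.2 ± 14.1 CPM in CD44Neg to 172 ± 47.8 CPM in CD44LowKitNeg (1.28 ± 0.18, adjusted p = 7.72e-05), the only gene of the list called there, where 4.94% of all genes were called higher. The list median was 0.08 on the log2 scale against 0.01 over all genes. *Mkl2* fell again in CD44LowKitPos (43.3 ± 12.8 CPM, -1.99 ± 0.30, adjusted p = 0.000299) and was 21.7 ± 6.89 CPM in CD44High. Against CD44LowKitNeg, CD44High had 3 of the 8 genes lower and 0 higher (*Cyr61* at -3.20, *Mkl2* at -2.99 and *Vcl* at -1.34 log2), where 8.17% of all genes were called lower. *Srf* itself was low, with medians between 5.18 and 10.4 CPM in the 4 populations.

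Of 13 actin cross-linkers and stress fibre genes, 3 were called higher in CD44LowKitNeg than in CD44Neg against 4.94% of all genes, and 0 lower. They were *Pdlim1* (3.01 ± 0.35, adjusted p = 1.11e-05), *Synpo* (3.57 ± 0.66, 0.00075) and *Palld* (1.87 ± 0.21, 6.97e-06), which encode scaffolds of alpha-actinin and actin bundles. In CD44High, 7 of the 13 fell against CD44LowKitNeg and 6 against CD44Neg, where 8.17% and 7.25% of all genes were called lower, and the list medians were -1.89 and -1.57 against 0 and -0.02 over all genes. *Synpo* had the largest of these decreases against CD44LowKitNeg (-5.53 ± 1.46, adjusted p = 0.00647).

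Of the members' 11 close relatives, 3 fell in CD44LowKitNeg against CD44Neg, where 5.23% of all genes were called lower: *Actb* (-0.96 ± 0.18, adjusted p = 0.000668), *Actg1* (-0.92 ± 0.21, 0.00441) and *Tpm3* (-0.86 ± 0.15, 0.000481). The median over the 11 was -0.44. Cardiac actin, *Actc1*, was called higher than in CD44Neg (0.76 ± 1.66 CPM) in CD44LowKitPos (78 ± 83.8 CPM) and in CD44High (58.3 ± 90.7 CPM), with wide spread in both: CD44LowKitPos libraries held 60.6, 169 and 4.22 CPM and CD44High libraries 162.9, 10.7 and 1.36 CPM. That was 1 of 11 relatives called in CD44LowKitPos against CD44Neg, where 3.48% of all genes were called. In CD44High against CD44Neg 3 of 11 were called, where 14.4% were, the others being *Cnn3* and *Tpm3* (-0.88 ± 0.21, adjusted p = 0.00266), both lower. Over the 9 members tested in CD44LowKitNeg against CD44Neg the median was 0.74, with 6 positive and 3 negative. Of 7 genes tested in the same comparison for the transition from endothelium to mesenchyme, *Fn1*, which encodes fibronectin (2.60 ± 0.23, adjusted p = 6.25e-07), and *Zeb2* (1.63 ± 0.36, 0.00327) rose and *Snai1*, a transcription factor of that transition, fell (-3.46 ± 0.67, 0.00114), where 4.94% of all genes were called higher and 5.23% lower.

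Across the 22 libraries on log2 CPM, *Acta2* ran most closely with *Tagln* among the members, at a Pearson r of 0.84, and 0.80 without CD44High replicate 22. *Cnn2* ran against *Acta2* at -0.64, and -0.79 without that library. *Cald1* and *Tpm4* had an r of 0.66. The r of *Myl9* with *Cald1* went from 0.51 to -0.05 without that library. These values describe libraries that share population, stage and depth.

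Outside the list, the gene most like *Acta2* was *Ap3s1* (r = 0.83), followed by *Dnajc21* (0.81) and *Ddx3x* (0.80). *Cald1* was most like *Zcchc14* (0.98), *Hmcn1* (0.96) and *Bgn* (0.95), and *Cnn2* most like *Rapgef3* (0.94), *Ddb1* (0.91) and *Klc1* (0.89). *Tpm4* was most like *Rasgrp3* (0.94), *Hecw2* (0.93) and *Sept11* (0.93). *Tagln* was most like *Pdzd8* (0.82), *Krt18* (0.80) and *Tmem68* (0.79), and *Myl9* most like *Rhobtb3* (0.89), *Rps6ka3* (0.88) and *Zc3hav1l* (0.87). *Actg2* was most like *Hdc* (0.82), *Col3a1* (0.78) and *Gpc6* (0.77), *Cnn1* most like *Vdr* (0.80), *Rpl39l* (0.77) and *Oxr1* (0.76), and *Tpm2* most like *1190007I07Rik* (0.86), *Vps18* (0.82) and *Inpp5d* (0.80). *Tpm1* had the weakest partners, *Lig4* (0.73), *Actn1* (0.72) and *Tceal8* (0.71). *Myl9*, *Rhobtb3* and *Rps6ka3* all had 0 counts in CD44High replicate 22 and at least 20 CPM in replicates 20 and 21. The same held for *Actg2* and *Col3a1*. No r without replicate 22 was taken for these partners, so the part of that library in their r is not known.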

How the data were processed

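The authors amplified polyadenylated RNA with Smart-seq2 (14 PCR cycles) and made Nextera libraries. Adaptors were removed with FASTX, reads aligned by RNA STAR, and counts per gene taken by htseq-count, and the submitters' processing notes name mm10, FastQC and HTSeq. Versions, annotation and strand setting are not given in the sources used here. The deposited values are raw counts without molecular identifiers, so intervals and limits cover counting error only. All 22 columns matched a labelled library.

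The members and all gene lists were chosen with earlier results of these data known. Named genes were all members, at most 4 called genes per other list and comparison with the largest log2 fold change, and the 3 genes most correlated with each member. Marker genes and uncalled genes of the lists were named after their values were seen.

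R 4.3.3 with edgeR 4.0.16 and DESeq2 1.42.0 was used. Genes were filtered with filterByExpr (minimum count 10, minimum total 15), scaled by TMM and tested over all genes, with CD44LowKitNeg against CD44Neg in 16 libraries, the other populations in 1 fit of 22, stages within a population, and the interaction in 11 libraries. SEs are the log2 fold change divided by the root of F. Levels per kb used the median length of GENCODE's basic coding transcripts. These fits were tested on simulated counts, with 1 contrast each in edgeR and DESeq2, and the other steps were not. The alternatives were DESeq2's size factors and Wald test, no filter, a threshold of 0.05, stage as a covariate, E11 alone, E9.5 and E10 with stage as a covariate, all 22 libraries and leaving out each library.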

Additional observations from a re-analysis of the deposited data

Results flagged for a closer look

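In groups of 4 to 10 libraries, a value was marked when its gap to the nearest library was large for the range of its group by Dixon's test, which chance does in about 1 group in 20. Of 30 groups tested over the 10 genes, 6 were marked. *Myl9* was 136 CPM in CD44Neg replicate 6, against 59.4 in the next library of E9.5, and 251 CPM in CD44LowKitNeg replicate 12, against 108 in the next. *Cnn1* was 8.19 CPM in CD44Neg replicate 6, against 0.239 in the next, both within E9.5 and over all CD44Neg libraries. CD44Neg replicate 6 thus held 3 of the 6 marks, and it was also the highest of the E9.5 libraries of CD44Neg in *Tagln* (55.1 CPM) and *Acta2* (70.8 CPM) and stood apart from them over all genes. *Actg2* was 37.2 CPM in CD44LowKitNeg replicate 11, against 5.73 in the next. *Tpm4* was 2058 CPM in CD44Neg replicate 4 against 1969 in the next library of E9.5, a difference that is large only beside a very narrow group.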

How the results depend on the processing

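The counts of called members and the log2 fold changes of members reported above or at an unadjusted p under 0.1 were recomputed. Under the alternatives other than leaving out a library, 312 values kept their direction and their side of the threshold, 47 passed it only under the alternative, 4 no longer passed it, 21 counts of called members moved by more than 1.5 times, and 5 log2 fold changes, none of them called, changed direction. These 5 were *Acta2* in CD44LowKitPos against CD44LowKitNeg, at -1.39 with stage as a covariate and -0.32 at E9.5 and E10 with the covariate, *Tpm1* in CD44High against CD44LowKitPos, at 0.27 with the covariate, and *Tpm1* in CD44High against CD44Neg, at 0.062 with the covariate and 0.076 at E11 alone. The count for CD44LowKitNeg against CD44Neg (0) was 5 at an adjusted p under 0.05 (20.1% of genes), 3 with the Wald test of DESeq2 (14.6%), 4 after adding stage as a covariate (11.9%) and 1 at E11 alone (1.06%). That for CD44LowKitPos against CD44LowKitNeg (1) was 0 at E9.5 and E10 with stage as a covariate (0.69% of genes). That for CD44LowKitPos against CD44Neg (0) was 1 with DESeq2's size factors (3.48% of genes). It was 2 at an adjusted p under 0.05 (7.27%), with the Wald test (6.79%), after adding stage (2.91%), and after adding stage at E9.5 and E10 alone (2.78%). Within CD44Neg, E10 against E9.5 (0) gave 1 with no filter (0.753% of genes) and 1 with the Wald test (2.25%), and E11 against E10 (0) gave 1 with no filter (0.156%). E11 against E9.5 (1) gave 2 at an adjusted p under 0.05 (3.13% of genes), 3 with no filter (1.81%) and 3 with the Wald test (4.16%). Within CD44LowKitNeg, E11 against earlier stages (0) gave 1 at an adjusted p under 0.05 (2.13% of genes) and 3 with the Wald test (4.98%). The interaction (0) gave 1 at an adjusted p under 0.05 (0.185% of genes), 3 with no filter (1.19%) and 2 with the Wald test (1.08%). The cause was not tested.

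Leaving out each library in turn gave 0 to 1 called members for CD44LowKitNeg against CD44Neg, with 1 without CD44Neg replicate 6 or CD44LowKitNeg replicate 14, 15 or 16. It gave 0 to 1 for CD44LowKitPos against CD44LowKitNeg (0 without replicate 17 or 18), 0 to 2 for CD44LowKitPos against CD44Neg (2 without CD44LowKitPos replicate 19), 0 to 0 for CD44High against CD44LowKitPos, 2 to 4 for CD44High against CD44LowKitNeg and 4 to 6 for CD44High against CD44Neg. It gave 0 in every fit for E11 against E9.5 in CD44Neg, 0 to 1 for the interaction (1 without CD44LowKitNeg replicate 11) and 0 for the other stages. In these fits 3 uncalled log2 fold changes changed sign: *Tpm1* in CD44LowKitNeg against CD44Neg (-0.046 to 0.20, below 0 without CD44LowKitNeg replicate 12 or 16), *Acta2* in CD44LowKitPos against CD44LowKitNeg (-0.16 to 0.43, below 0 without CD44LowKitPos replicate 17) and *Cald1* in CD44High against CD44LowKitPos (-1.80 to 0.82, above 0 without CD44LowKitPos replicate 19). No paired analysis was possible because the library numbers are unique and the groups share none. The groups of 3 libraries, the single CD44LowKitNeg library of E9.5, and levels near the 0.348 to 0.816 CPM allowed by a count of 0 limit what could be called for *Cnn1*, *Actg2* and *Myh11*.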
